A study of Mus musculus with 35 samples.

Results

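In macrophages stimulated with lipopolysaccharide (LPS), 1141 genomic regions were listed for both ATF3 and the NF-κB subunit p65 and touched no region of acetylated histone H4 (H4ac) up to 10 kb wide. They were 19.6% of the 5831 joined regions of 4 lists made by chromatin immunoprecipitation and sequencing (ChIP-seq), namely the ATF3 libraries of letters B and C at 240 min of LPS, the p65 library of letter A at 60 min and the p65 library of letter C at 120 min. Listed regions up to 10 kb wide were joined where they overlapped by at least 1 bp. A joined region was kept if at least 1 ATF3 and at least 1 p65 list held it and no H4ac region up to 10 kb overlapped it. The members were thus chosen by the measured lists themselves, so their presence in those 4 lists and their absence from the H4ac lists are a description and carry no test.

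ATF3 is a basic leucine zipper transcription factor that is induced by stress and by LPS, and in macrophages it is known to restrain cytokine genes. p65 (RelA) carries a transactivation domain, forms the classical NF-κB dimer with p50, and enters the nucleus when Toll-like receptor 4 senses LPS. p50 has no transactivation domain of its own and can also bind as a homodimer. Acetylation of histone H4 marks open, active chromatin at promoters and enhancers, RNA polymerase II (Pol II) marks transcribed genes, and trimethylation of histone H3 at lysine 27 (H3K27me3) is laid down by Polycomb complexes.

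All 35 libraries came from primary bone marrow macrophages of female wild-type C57BL/6 mice aged 8 to 12 weeks, with no other allele or agent in the labels. LPS groups used here were ATF3 at 240 min (3 libraries), p65 at 60 and 120 min (2 each), p50 at 60 min (4), and H4ac at 60, 120 and 240 min (2 each). Unstimulated groups were p50 (3 libraries), H4ac (2), p65 (1), Pol II (1) and H3K27me3 (1). Pol II was also profiled after 60 and 240 min (2 libraries each) and after 120 and 360 min (1 each), and H3K27me3 after 120, 240 and 480 min and in a library labelled 480 min whose title gives 60 min and a delay of 7 h (1 each). The lists held 255 to 28522 regions, and sequencing depth is unknown. A region absent from a list was not listed there, which does not show that it was unbound. Nothing in the labels says that libraries came from separate animals or cultures.

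The 4 choosing lists resembled each other more than they resembled other lists of the same antibody. Of the joined regions of ATF3 B, 31.9% touched ATF3 C, 29.3% touched p65 A and 27.7% touched p65 C, and 7.27% touched ATF3 A, the third library of the same antibody, time and label. Of the joined regions of ATF3 C, 15.6% touched ATF3 B, 22.2% touched p65 A and 22.5% touched p65 C, against 5.46% for ATF3 A. For ATF3 B and C, the share touching p65 lists was thus within a few points of, or above, the share touching the other ATF3 list. These shares are not corrected for the length of the touched list. Joined, ATF3 B had 1224 regions, ATF3 C 2507, ATF3 A 3507, p65 A 2206 and p65 C 2040. The 15.6% of ATF3 C regions touching ATF3 B thus refers to the shortest of these lists.

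The p65 lists showed the same grouping. Of the joined regions of p65 A at 60 min, 25.3% touched ATF3 C and 24.6% touched p65 C, while 0.227% touched p65 X, the other p65 library at 60 min. Of the regions of p65 C at 120 min, 27.6% touched ATF3 C and 26.5% touched p65 A, against 1.72% for p65 X at 120 min. The p65 X libraries shared regions among themselves, as 59.3% of the regions of X at 120 min touched X at 60 min. Their lists were short, with 209 regions up to 10 kb unstimulated, 487 at 60 min and 451 at 120 min. p65 A had 2257 and p65 C 2081, so list length limits the shares that can touch p65 X. Counted from the p65 X lists, where their short length sets no such limit, 1.05% of X regions at 60 min and 1.14% at 120 min touched p65 A. For p65 C these shares were 8.23% and 12.0%. They were 15.6% and 21.1% for ATF3 A, the longest of these lists, so p65 X shared more regions with ATF3 A than with either p65 choosing list. The reason was not tested. All ATF3 libraries carry 1 antibody catalogue entry in the labels, and all p65 libraries another. The titles of ATF3 B and p65 A open with the same date, and no other ATF3 and p65 pair does. The labels do not say what the date marks, and its part in the overlap was not tested. A member is thus a region listed in libraries of both antibodies, and 3 of the 5 p65 libraries and 1 of the 3 ATF3 libraries rarely listed it. Whether either factor was bound there was not tested.

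**Figure D1:**
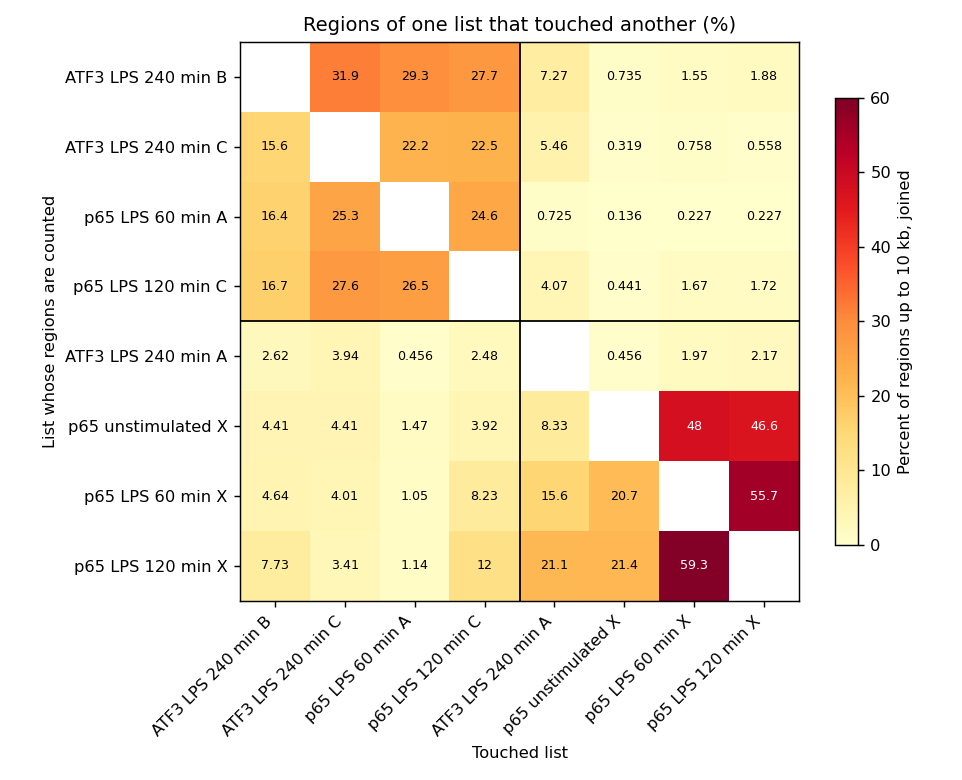
Percent of the joined regions of the list in each row, up to 10 kb, that touched the list in each column, for the 3 ATF3 and 5 p65 libraries. The upper left block holds the 4 choosing lists, with 15.6% to 31.9% of regions shared, and the lower right block holds ATF3 A and the p65 X libraries, where the p65 X lists at 60 and 120 min share 55.7% and 59.3%.

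Most of the 1141 regions rested on 2 lists. They numbered 701 in exactly 2 lists (61.4%), 356 in 3 lists (31.2%) and 84 in all 4 lists (7.36%). ATF3 C held 848 of them (74.3%), p65 A 718 (62.9%), p65 C 712 (62.4%) and ATF3 B, the shortest of the 4 lists, 528 (46.3%). The commonest combination was ATF3 C with p65 C at 120 min (244 regions), followed by ATF3 C with p65 A at 60 min (226) and by ATF3 C with both p65 lists (143). The pair whose titles share a date, ATF3 B and p65 A, gave 119 regions on its own, and ATF3 B with p65 C gave 112. The shared regions therefore came from every pairing of the 4 libraries and not from 1 pair.

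**Figure D2:**
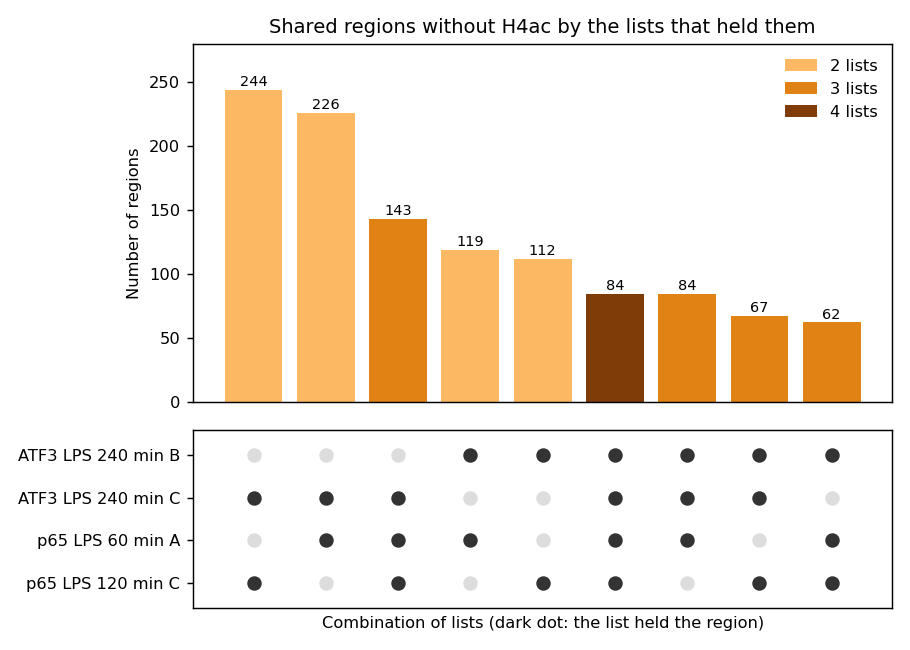
Number of shared regions without H4ac (bars) for each of the 9 combinations of the 4 choosing lists, shown by dark dots under each bar; colour gives the number of lists. The 2 combinations of ATF3 C with 1 p65 list are the tallest bars, at 244 and 226 regions, and 84 regions were in all 4 lists.

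The rule joined overlapping regions with a median width of 160 bp for either target, so their centres had to lie close together, and the distances describe the chosen set only. The centres of the best-scored ATF3 and p65 regions of a member were a median of 25 bp apart (quartiles 5 and 70 bp), and in 776 members (68.0%) they were within 50 bp. In 108 members the 2 listed regions had identical ends, where the lists place ends in steps of 10 bp. Members had a median width of 240 bp (quartiles 170 and 380 bp), against 150 bp (130 and 210 bp) for the 4170 regions listed for 1 target only and without H4ac, called single-target regions here. Joining several overlapping regions widens a region, so the difference follows in part from the rule. Median width was 210 bp in members of 2 lists, 270 bp in those of 3 and 340 bp in those of 4.

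Members ranked better by score within the lists that chose them. The score is the authors' own for each region, and rank here is the position in a list as a percent, with 0 as the best. Members had a median rank of 42.3% in ATF3 B, 39.8% in ATF3 C, 37.6% in p65 A and 42.9% in p65 C. Single-target regions had 56.1%, 53.7%, 54.2% and 52.9% in the same lists. The order was the same in all 4 lists, with members better placed by 10 or more points. These are values of the lists that the rule used, and no test was made.

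Most regions shared by ATF3 and p65 in these lists lay outside narrow H4ac regions. Of 1195 shared regions, 1141 (95.5%, 95% exact Clopper-Pearson interval 94.1 to 96.6) touched no H4ac region up to 10 kb, against 4170 of 4636 regions of 1 target (89.9%, 89.0 to 90.8). Such intervals cover counting error over regions only. Just inside the limit, the nearest member lay 70 bp from an H4ac region, 27 members (2.37%) lay within 1 kb and 185 (16.2%) within 10 kb, and the median distance was 88.2 kb. Single-target regions had a median distance of 98.3 kb, with 2.33% within 1 kb. Just outside it, the 54 shared regions that touched H4ac did so by at least 20 bp, 35 of them over their whole length, and 12 through 1 H4ac list only. At the width limit, the widest regions admitted from the 4 lists were 8420 to 9580 bp and the narrowest left out 10200 to 14710 bp.

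The width limit on H4ac sets what is called H4ac-free. H4ac regions above 10 kb reached 123 Mb in width and together covered 1213 Mb. They contained or touched 535 of the 1141 members (46.9%), against 2009 single-target regions (48.2%), and 606 members touched no H4ac region of any width. H4ac regions of 10 to 100 kb touched 2.10% to 4.73% of members per list, against 2.76% to 4.22% of single-target regions and 20.4% to 33.3% of shared regions with H4ac.

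The p50 lists, which the rule did not use, held members more often than single-target regions in each of the 7 p50 libraries. At 60 min of LPS, the libraries of letters A, B, C and D held 3.24%, 1.23%, 2.02% and 2.98% of members. Without stimulation, letters A, C and D held 3.16%, 2.63% and 4.73%. Over the 7 libraries, members were held at 2.85 ± 1.09% and single-target regions at 1.08 ± 0.475% (SD, n = 7 libraries). The difference of 1.77 percentage points ranged from 0.819 to 3.01 and was positive in 7 of 7 libraries (exact two-sided sign-flip permutation p = 0.0156, the smallest 7 libraries allow, Benjamini-Hochberg adjusted p = 0.0365 over 7 tests). Read at the centre base of each region, which removes its width, the difference was 1.08 points with the same adjusted p of 0.0365. H4ac was then read at the centre base as well, which made the members 1152. With p50 lists cut to equal length, the exact permutation test gave 0.879 points (adjusted p = 0.109), and with the better-scored 50% of all lists 0.240 points (adjusted p = 0.201), so the call held under neither. By the same exact permutation test, the adjusted p was 0.0547 with at least 50% of each region covered or with H4ac of every width, 0.0729 with regions up to 1 kb and 0.0729 without any 1 p50 library, where 6 libraries allow no smaller p than 0.0312. Without ATF3 B, ATF3 C or p65 C it was 0.0547 each, and without p65 A it was 0.0365. By the rule a member was in at least 2 choosing lists, while a single-target region could be in 1 only. The 2 sets were not matched for number of lists or score rank. The comparison therefore does not separate listing for both targets from listing in more libraries.

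The p50 regions at members ranked low in their own lists. Their median rank was 69.4%, 82.6%, 84.0% and 53.5% in LPS A, B, C and D, where all other p50 regions had 46.0%, 48.4%, 48.2% and 48.1%. In unstimulated A, C and D it was 75.2%, 63.9% and 52.6%, against 43.6%, 46.9% and 47.0%. They were the worse-scored ones in 7 of 7 libraries, by the widest margin in LPS B and C and by the narrowest in both letter D libraries. p50 regions at members made up 2.94%, 1.28%, 1.87% and 10.7% of the LPS lists and 9.20%, 7.09% and 16.4% of the unstimulated lists. The LPS D list was short, with 317 regions up to 10 kb, against 1096 to 1292 in the other LPS lists and 342 to 437 in the unstimulated ones.

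**Figure D3:**
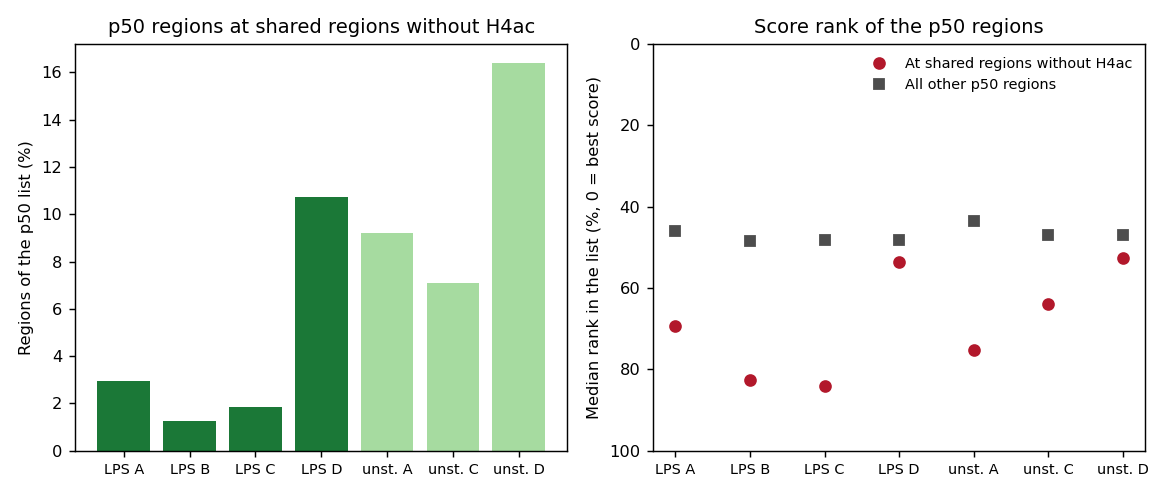
Left, percent of each p50 list's regions that lay at shared regions without H4ac, for LPS (60 min) and unstimulated libraries (unst.); right, median score rank of those regions (circles) and of all other p50 regions (squares), with 0 as the best rank. The circles lie below the squares in all 7 libraries, and both letter D lists have the smallest gap.

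No change with LPS in how often p50 was listed at members was detectable with these libraries. The LPS libraries held 2.37 ± 0.925% of members (SD, n = 4) and the unstimulated libraries 3.51 ± 1.09% (n = 3). The difference of -1.14 points did not pass (exact two-sided permutation p = 0.286, adjusted p = 0.333), and the smallest p this design allows is 0.0571. Most LPS lists were longer than the unstimulated ones. With p50 lists cut to equal length, a setting added after seeing the data, the means were 0.767% and 2.48%. That difference of -1.72 points did not pass either (exact permutation test, adjusted p = 0.24). Within letters, whose titles carry 1 date in both conditions, LPS and unstimulated libraries differed by 0.0876 points in A, -0.614 in C and -1.75 in D. The p50 regions at members were rarely the same ones from list to list. At least 1 p50 list held 174 members (15.2%), where 9.42% of all joined regions were so held, and 138 of the 174 were in 1 p50 list only. LPS lists held 96 of them and unstimulated lists 104, with 26 in both conditions. The same counts were not made for the other joined regions, so rare recurrence is not shown to be particular to members.

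Few members met a rule for a change of p50 with LPS. A region was called gained where 3 or 4 LPS lists and none of the unstimulated ones held it. No member was gained, where 0.326% of all joined regions (19) were. Of the 4170 single-target regions 1 was gained (0.0240%), so the near absence of gain was not particular to members. A region was called lost where 2 or 3 unstimulated lists and none of the 4 with LPS held it. This applied to 5 members (0.438%), against 0.171% of all joined regions (10) and 3 single-target regions (0.0719%). The 5 lost members lay at chr4:54036421-54037330, chr8:118758101-118758240, chr13:46758881-46761130, chr13:47677011-47680870, and chr16:40469831-40470210 (build mm9, as for every position here). Each was in exactly 2 of the 3 unstimulated lists, and they were singled out after their values were seen.

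Members of more lists were held by p50 more often and by Pol II less often. The mean share held over the 7 p50 libraries was 5.27% in members of 4 lists, 3.73% in those of 3 and 2.12% in those of 2. It was higher with 4 than with 2 lists in 7 of 7 libraries, and higher with 3 than with 2 in 7 of 7. At the centre base these means were 3.23%, 2.61% and 1.41%, and 4 lists exceeded 2 in 6 of 7 libraries, the exception being unstimulated C (1.19% against 1.43%). In members of 4 lists each p50 value rests on 1 to 9 of 84 regions. For Pol II the means were 0.510%, 0.803% and 1.90%, lower with 4 and with 3 lists than with 2 in 7 of 7 libraries, with at most 1 of the 84 regions held per library. For H3K27me3 they were 5.00%, 4.04% and 4.39%, with no common order over the 5 libraries. No test was made of these orders.

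Pol II was rarely listed at members. The unstimulated library held 1.40% of them, the 2 libraries at 60 min 1.31% and 1.58%, that at 120 min 1.40%, those at 240 min 1.84% and 2.02%, and that at 360 min 0.614%. Values before LPS and up to 240 min thus lay close together, and the 360 min library was the lowest. Its list was also the shortest, with 2636 regions up to 100 kb against 4033 to 7014 in the others, and it held the smallest share of single-target regions (0.552%), so time and list length cannot be told apart. Over the 7 libraries members were held at 1.45 ± 0.449% and single-target regions at 1.32 ± 0.443% (SD), a difference of 0.137 points that did not pass (exact permutation p = 0.219, adjusted p = 0.306). At least 1 Pol II list held 42 members (3.68%), against 154 single-target regions (3.69%), where 7.89% of all joined regions were so held.

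Within libraries, the H3K27me3 share of members minus that of single-target regions ranged from -0.801 to 0.221 points. The unstimulated library held 4.73% of members, those at 120, 240 and 480 min 2.72%, 2.89% and 5.78%, and the library with the 7 h delay 5.52%. The 120 and 240 min libraries were the lowest. Their lists were also the shortest, with 1659 and 1913 regions up to 100 kb against 3108 to 3556 in the others. They held the smallest shares of single-target regions too (3.09% and 3.69%), so time and list length cannot be told apart. Members averaged 4.33 ± 1.45% and single-target regions 4.48 ± 1.07% (SD, n = 5 libraries), a difference of -0.155 points (exact permutation p = 0.562, adjusted p = 0.562, smallest possible p 0.0625). At least 1 H3K27me3 list held 102 members (8.94%), where 8.57% of all joined regions were so held. In all 5 lists were 14 members. Joined regions in all 5 lists were not counted, so this number has no background to compare with.

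Compared with the 54 shared regions that touched H4ac, members were listed less often for p50 and Pol II. For p50, members were held at 2.85 ± 1.09% and the 54 regions at 13.0 ± 5.66% (SD, n = 7 libraries), lower by 10.1 points on average and in 7 of 7 libraries (exact permutation p = 0.0156, adjusted p = 0.0365). For Pol II the values were 1.45 ± 0.449% and 16.7 ± 6.50%, lower by 15.2 points and in 7 of 7 libraries (exact permutation p = 0.0156, adjusted p = 0.0365). For H3K27me3 they were 4.33 ± 1.45% and 9.26 ± 2.93%, lower in 5 of 5 libraries, which did not pass (exact permutation p = 0.0625, the smallest possible, adjusted p = 0.109). The 54 regions were few and unevenly placed. On chromosome 11 lay 12 of them (22.2%), against 4.12% of members, and 5 of the 54 lay within 100 kb of another. Each p50 value of this set rests on 4 to 12 regions and each Pol II value on 4 to 14. Members were narrower, with a median of 240 bp against 455 bp for the 54 regions. Read at the centre base, the differences were -5.07 points for p50 and -10.4 points for Pol II (exact permutation test, adjusted p = 0.0365 each). H4ac was then read at the centre base too, so members became 1152 and the comparison set was no longer the same 54 regions. The p50 difference was -5.00 points without ATF3 B (adjusted p = 0.0729) and -3.84 without p65 C (adjusted p = 0.146) by the exact permutation test. For p50 and for Pol II, 14 of 18 alternatives did not pass, among them every one that left out 1 library of the target. When H4ac regions of every width defined the 2 sets, the p50 difference was -0.740 points (exact permutation test, adjusted p = 0.284) and the Pol II difference -4.10 points (adjusted p = 0.0547).

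**Figure D4:**
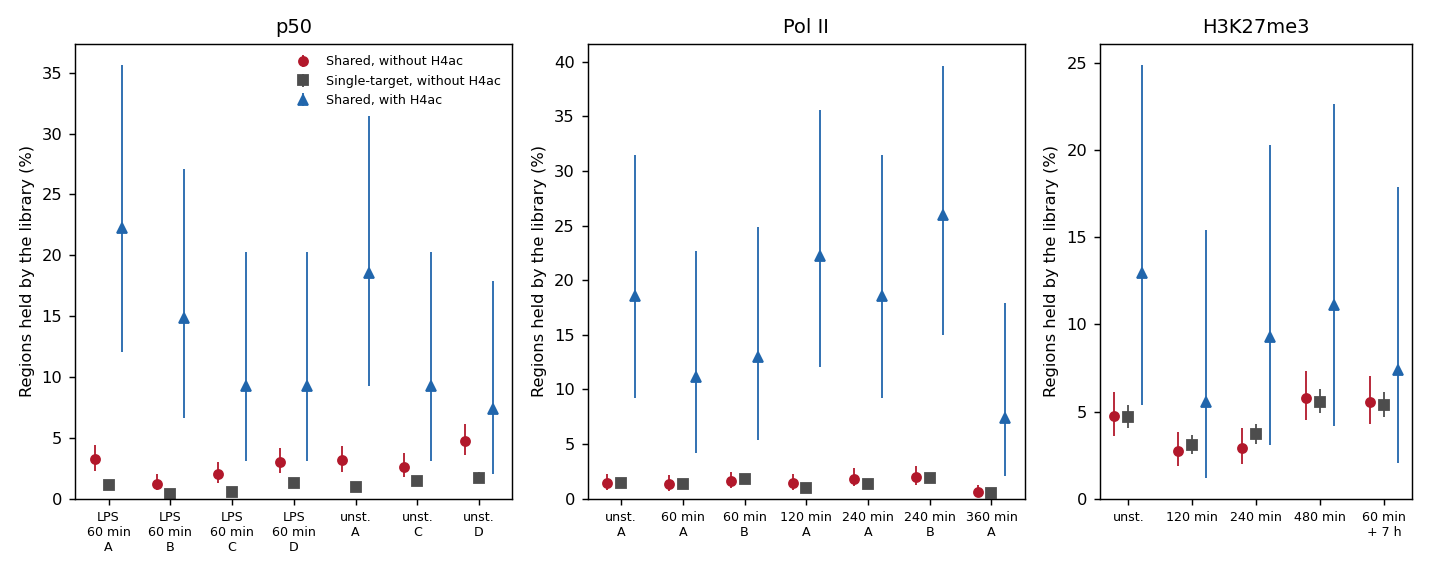
Percent of regions held by each p50, Pol II and H3K27me3 library, with exact 95% intervals for counting error, for shared regions without H4ac (circles), single-target regions without H4ac (squares) and shared regions with H4ac (triangles); unst., unstimulated, and the letters are replicate names. Circles lie above squares in all 7 p50 libraries and near them for Pol II and H3K27me3, and the triangles, from 54 regions, lie above both in every library.

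The remaining ATF3 and p65 libraries rarely listed the members. ATF3 A held 21 of them (1.84%), against 69 single-target regions (1.65%) and 11 of the 54 shared regions with H4ac. p65 X held 1 member unstimulated, 2 at 60 min and 3 at 120 min (0.0876%, 0.175% and 0.263%), against 0.168%, 0.384% and 0.456% of single-target regions and 4, 6 and 7 of the 54 regions. These p65 X lists were short, at 209, 487 and 451 regions up to 10 kb, which caps the shares they can hold. Counted from the p65 X lists, where that cap does not apply, few of their regions touched a member. These were 1 of 209 unstimulated, 2 of 487 at 60 min and 9 of 451 at 120 min, where several regions can touch the same member. The reason was not tested. In all, 4 members were in a p65 X list, and all 4 were also in a p50 list. These 4, singled out after their values were seen, all came from ATF3 B with p65 C. They lay at chr9:3022891-3024630, chr11:3076971-3077610, chr11:3096891-3099960, and chr12:75905251-75905390.

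Counted over the 23 lists outside the rule, 838 members (73.4%) were in none, 169 (14.8%) in 1 and 134 (11.7%) in 2 or more. Of single-target regions, 82.0% were in none, 8.51% in 1 and 9.45% in 2 or more. In 5 or more other lists were 2.54% of members and 2.78% of single-target regions. The larger share of members with another list therefore lay mostly in those with 1 such list.

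The member with the best mean rank lay at chr4:54780581-54780870. It ranked at 0.875% in ATF3 B, 10.1% in ATF3 C, 0.525% in p65 A and 2.54% in p65 C, and no list outside the rule held it. The next, at chr7:50735011-50735610, had a mean rank of 5.49% and was in all 5 H3K27me3 lists. A region at chr7:79685641-79687740 (mean rank 6.62%) was also in p50 LPS D, and one at chr8:121511471-121511850 (7.39%) in p50 unstimulated D. The region at chr13:60067711-60068970 (11.5%) was in p50 LPS A, LPS D and unstimulated D and in the H3K27me3 library with the delay. Another at chr13:47677011-47680870 (13.0%) was 1 of the 5 lost for p50. The regions at chr16:28051571-28051750 (14.3%) and chr13:106131281-106131460 (14.4%) were in no other list. The other 2 of the 10 best lay on chromosome 18. None of the 8 positions given here was in a Pol II list.

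The members held by the most other lists were of different kinds. That at chr7:108558211-108558500 was in 11 lists outside the rule, namely all 7 of Pol II, 3 of p50 and 1 of H3K27me3. That at chr11:3096891-3099960 was in 9, namely 6 of p50, ATF3 A, p65 X at 120 min and the H3K27me3 library with the delay. A member at chr4:135077251-135077560 was in 8, with all 5 H3K27me3 lists and 3 of p50. The member at chr4:3622411-3622550 was in all 7 Pol II lists, and that at chr4:59503581-59503740 in 6 Pol II lists and p50 unstimulated D. Their combinations of choosing lists varied, and none of the 5 was in all 4 choosing lists.

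Members were spread over every chromosome. Autosomes held 0.326 (chromosome 19) to 0.544 (chromosome 5) members per Mb, with a median of 0.448, where length is the last listed base. Chromosome 1 had the most, at 90. As a percent of joined regions, members were 15.5% on chromosome 7 to 23.3% on chromosome 16, and 19.9% on the autosomes together (1088 of 5475, exact 95% interval 18.8 to 21.0). On X they were 49 of 330 (14.8%, 11.2 to 19.2), at 0.294 per Mb, below every autosome. Single-target regions were at 1.52 per Mb on X, within their autosomal range of 1.40 to 1.74. The X share of the choosing lists was 5.25% and 5.86% in ATF3 B and C and 6.51% and 4.13% in p65 A and C.

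**Figure D5:**
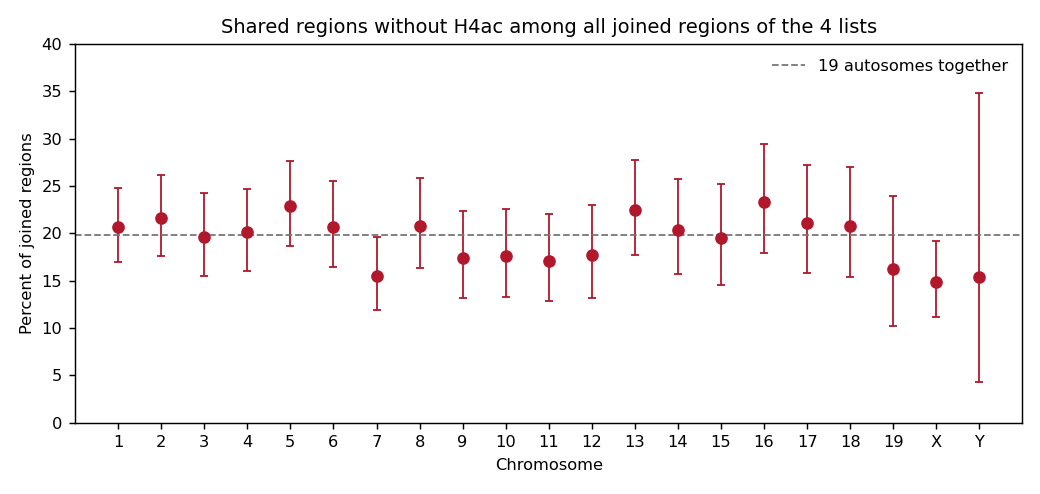
Shared regions without H4ac as a percent of all joined regions of the 4 lists on each chromosome, with exact 95% intervals for counting error; the dashed line is the percent over the 19 autosomes, 19.9%. Autosomes lie between 15.5% and 23.3%, X is at 14.8% and Y rests on 4 members of 26 regions.

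Chromosome Y held 4 members of 26 joined regions, although the labels give female mice. They lay at chrY:2190131-2190700, chrY:2388981-2389110, chrY:2389121-2397540 and chrY:2665421-2673100. Such positions were not particular to members, as 24 of the 35 lists held a region on Y, among them 7 of 7 p50, 5 of 5 H3K27me3 and 3 of 3 ATF3 lists.

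Members were mostly isolated along the chromosomes. The median gap to the nearest other member was 691.5 kb. Another member lay within 10 kb of 25 members (2.19%), within 100 kb of 119 (10.4%, exact 95% interval 8.72 to 12.4) and within 1 Mb of 693 (60.7%). Single-target regions, more numerous at 4170, had 6.04%, 31.0% and 95.8% within these gaps, so the 2 sets differ in density and their shares are not directly comparable. Linked at gaps up to 100 kb, members formed 56 chains, 50 of them of 2 members, 5 of 3 and 1 of 4.

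The chain of 4 spanned 155 kb at chrX:132101101-132256450, and 2 of its members were in p50 LPS C. A chain of 3 at chr1:155641801-155729500 had 2 members in H3K27me3 lists. That at chr11:3076971-3099960 spanned 23.0 kb and held 2 of the 4 members in p65 X lists. Chains of 3 also lay at chr13:114862781-114958800 and chr16:96910931-97070100. The remaining chain of 3 was the tightest, with 2.18 kb at chrX:12798521-12800700. One of its members was in all 4 choosing lists, and none was in another list.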

How the data were processed

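Fixed chromatin was sonicated, precipitated and read by single-end Illumina sequencing, per the labels' protocols. Each library had 1 deposited list of regions with a scale number and a score, used here only to rank regions within a list. The build was mm9, per the submitters' processing notes. What aligned the reads and called the regions is not given in the sources used here. The lists hold no read counts, so depth is unknown.

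Regions up to 10 kb (ATF3, p65, p50, H4ac) or 100 kb (Pol II, H3K27me3) were used, and a library held a region if they overlapped by at least 1 bp. Shares per library were compared by exact permutation over libraries, with Benjamini-Hochberg adjustment over 7 tests, in Python 3.11.15 with numpy 2.4.6, pandas 2.3.3 and scipy 1.17.1. The permutation code was tested on simulated data. Libraries may be technical replicates, and p-values measure only the spread between them. Regions are not replicates.

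The members, lists and alternatives were chosen with earlier results of these data known. Regions were named by rule: the 10 members of 4 lists with the best mean rank, the 5 largest chains (the tied sixth is added) and the 5 members in most other lists, with ties taken in order of chromosome and start. Positions on chromosome 18 are not printed. Genes, motifs and sequences were not used here, as the reference tables are of another build.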

Additional observations from a re-analysis of the deposited data

How the results depend on the processing

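The 1141 members became 524 with regions of every width, 606 with H4ac of every width and 468 with lists cut to their better-scored 50%. Leaving out each choosing list in turn gave 528 to 845. The share with a neighbour within 100 kb was 8.02% with every width, 6.41% with the better-scored 50% and 5.11% to 7.55% without a choosing list, and became 2.19% and 60.7% at gaps of 10 kb and 1 Mb. The share in all choosing lists was 21.1% to 27.8% when 3 lists remained, which is a weaker demand.

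The p50 excess in members over single-target regions was positive throughout and did not pass with regions up to 1 kb (1.42 points), H4ac of every width (1.83), at least 50% of the region covered (0.906), the better-scored 50% (0.240) or p50 lists of equal length (0.879, added after seeing the data). Adjusted p over all settings was 0.0273 to 0.201. It was 1.57 to 1.93 without 1 p50 library, where 6 libraries allow no p below 0.0312 and none passed, and 1.68 to 2.23 without 1 choosing list, passing only without p65 A. The p50 difference from shared regions with H4ac did not pass at 1 kb (-19.6), with H4ac of every width (-0.740), 50% covered (-3.73) or the better-scored 50% (-10.3). It was -11.3 to -8.63 without a p50 library, none passing, and -13.5 to -3.84 without a choosing list, passing only without p65 A. For Pol II these values were -6.35, -4.10, -10.4 and -19.5, with -16.6 to -13.8 without a library and -19.0 to -9.80 without a choosing list, again passing only without p65 A. Several of these have an adjusted p of 0.0547 at the smallest possible p, because fewer of the 7 tests reached it.

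Members minus single-target regions turned round for Pol II at 1 kb (-1.42) and with H4ac of every width (-0.0210), with -0.112 to 0.0660 without a choosing list and 0.0727 to 0.192 without a Pol II library. For H3K27me3 it was 1.18 with every width, -0.637 to 0.801 without a choosing list and -0.249 to 0.00662 without a library. H3K27me3 against shared regions with H4ac was 2.05 with the better-scored 50%, -12.4 to 0.580 without a choosing list and -5.69 to -4.10 without a library. The 1 kb limit applied to H4ac as well, so regions touching only wider H4ac counted as without H4ac. The Pol II share of single-target regions was 3.23% at 1 kb, against 1.32% in the main setting. The causes were not tested.

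LPS minus unstimulated p50 stayed negative and unpassed in 21 settings, at -2.37 to -0.526 points, and was -0.730 without both letter D libraries. With letters A, C and D as a replicate block it was -0.760 (exact permutation p = 0.5, smallest possible 0.25). Same-letter libraries deviated together weakly, with correlations of 0.0136, 0.0919 and 0.229, so letters were not taken to pair libraries. Without read counts, a region under a caller's threshold cannot be told apart from one with no signal.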
